A study of Solanum lycopersicum with 32 samples.

Results

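The genes described here are the 85 tomato genes whose stem transcript levels were higher after heat in sft plants and also in sft plants that carry a heat-inducible florigen transgene. They were taken from 34728 genes counted in the heat-shock experiment. Levels are given as CPM, read counts scaled to a common library total, and heat differences were taken on the log2(CPM + 1) scale, which understates the change of weakly expressed genes. A gene entered when the mean of the heated libraries exceeded that of the unheated ones by 0.8 or more and both heated libraries lay above both unheated ones, in each genotype. This left 89 genes, 0.256% of all, and 4 of them were set aside because the rule drops 6 named identifiers, 4 of which had passed (Solyc06g076520, Solyc06g076560, Solyc06g076570 and Solyc09g015000). The 85 genes were thus chosen by their heated minus unheated values, which are given as a description without a test.

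Heat damages proteins and membranes, and plant cells answer with heat stress transcription factors that switch on genes for chaperones, the proteins that keep others folded or refold them. Heat also changes transcripts of many genes outside the chaperone families, among them genes of metabolism, membranes and signalling. Promoters of heat shock genes are used in the laboratory to turn on a transgene by warming the plant, and a plant without the transgene is then heated as well to show what heat alone does. Florigen is the mobile flowering signal, encoded in tomato by SINGLE FLOWER TRUSS (SFT) and in Arabidopsis by FT. The files identify genes by Solyc identifiers alone, and none of these was paired with a name or a role, so the 85 genes are called by their identifiers and no role is given to any of them. For the same reason the lists of heat shock, hormone, wall and cell type genes that had been planned could not be run, no sequences are shown, and the stem label was not checked against marker genes.

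The heat-shock experiment held 4 groups of 2 libraries: heated sft pHS:FT plants, unheated sft pHS:FT plants, heated sft plants and unheated sft plants. All of them carried the sft mutation, a mutation of the florigen gene of tomato itself, and pHS:FT denotes FT under a heat shock promoter. The sources used here state neither the temperature, the length of the heating and the time until harvest, nor the number of transgenic lines. The other 24 libraries came from stems not labelled as heated. The overexpression experiment held pSFT-SFT, sft and wild-type (WT) stems; its sft libraries are titled sft but carry the genotype label SFT, and its pSFT-SFT libraries are titled pTFT. The graft experiment held stems of 35S:SFT//sft, sft//sft, 35S:SFT//WT, WT//WT and 35S:SFT//sp grafts, named as in the genotype labels; the titles give the partners the other way round, and the sft//sft grafts are titled with a wt partner. The FUL experiment held 35S:SFT, 35S:TFUL2 and WT stems, and the Ginkgo experiment held 35S:GinFT stems alone. The 35S promoter is a viral promoter active in most plant tissues. Each sample was a set of internode segments taken in the morning, in duplicate. The labels do not say whether both libraries of a group came from separate plants, so each p-value reflects the scatter of these library pairs, which may be technical.

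The heat-shock libraries held 16583755 to 27988274 counted reads, and all 32 libraries 16583755 to 45790153. Reads of the FT transgene numbered 57 and 70 in heated pHS:FT plants and 1 and 1 in unheated pHS:FT plants. They numbered 0 and 0 in heated sft plants and 12 and 0 in unheated sft plants, so replicate 1 of unheated sft holds FT reads that its label does not account for. The same library stood apart in the 85 genes. Its level was above that of replicate 2 in 77 of the 85 genes, by a median of 0.47 on the log2 scale, whereas it was above in 59.1% of all genes with a read, by a median of 0.05. In heated pHS:FT plants, replicate 2, the library with the fewest reads, lay above replicate 1 in 67 of the 85 genes, by a median of 0.38, against 57.1% of all genes with a read and a median of 0.05. Several results that rest on these libraries are therefore also given without 1 of them. Values given with no such mention use all libraries.

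The summed level of the 85 genes was 10396 and 13701 CPM in heated pHS:FT plants, against 2849 and 2698 CPM in unheated pHS:FT plants. The sum was 8236 and 8223 CPM in heated sft plants, against 3217 and 2664 CPM in unheated sft plants. The 4 heated libraries lay above the 4 unheated ones in the sum. The choice of genes fixes this within each genotype. In bulk stem tissue, a change in RNA per cell and a change in the number of cells of a type cannot be told apart. Without Solyc01g095320, which took 20.5% to 25.6% of the sum in the 4 heated libraries, the sums were 8176 and 10821 CPM in heated and 2734 and 2636 CPM in unheated pHS:FT plants, and 6550 and 6117 CPM in heated and 2914 and 2563 CPM in unheated sft plants.

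**Figure D1:**
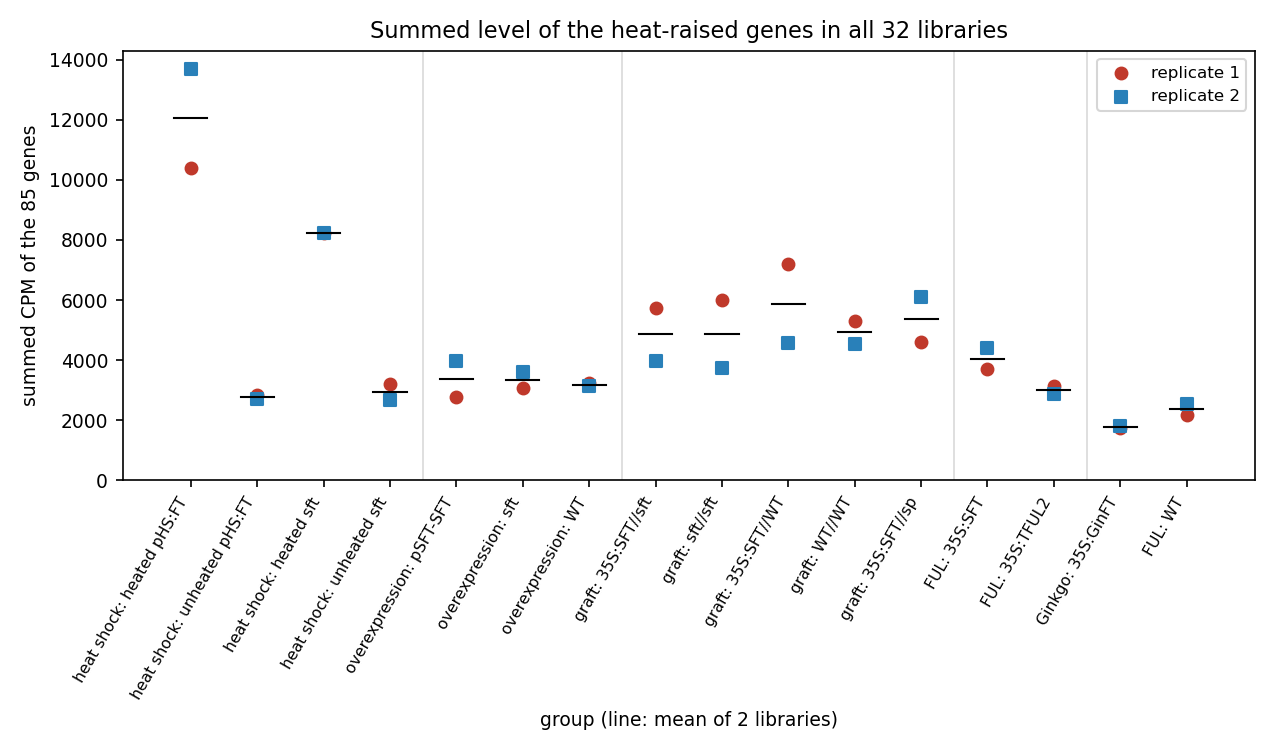
Summed CPM of the 85 heat-raised genes (vertical axis) in each of the 32 libraries, by group; circles and squares are replicates 1 and 2 and the line is their mean. The heated pHS:FT libraries stand at 10396 and 13701 CPM, the heated sft libraries at 8236 and 8223 CPM, and the graft libraries between 3744 and 7188 CPM.

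The heat difference had a median of 1.77 in pHS:FT plants (0.81 to 4.89), against 0.03 over all genes with a read. In sft plants its median was 1.16 (0.80 to 3.42), against 0 over all genes with a read. A difference of 2-fold or more was reached by 73 genes in pHS:FT plants, 56 in sft plants and 55 in both, and one of 8-fold or more by 13, 4 and 4. The rule passed 1.68% of all genes in pHS:FT plants and 0.409% in sft plants, and the 85 genes made up 14.6% of the pHS:FT list and 59.9% of the sft list. The number chosen moved with the libraries used. Without replicate 1 of unheated sft the rule gave 140 genes, which included the 85, and the median difference in sft plants was 1.43. Without replicate 2 of unheated sft it gave 57 genes, 51 of them among the 85, and the median was 0.94. Without replicate 2 of heated pHS:FT it gave 84 genes, 76 of them among the 85, and the median difference of the 85 in pHS:FT plants was 1.58.

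The gene with the largest heat difference in both genotypes among the 85 was Solyc01g095320. It stood at 2220 and 2880 CPM in heated pHS:FT plants, against 114 and 62.3 CPM in unheated pHS:FT plants. In heated sft plants it stood at 1686 and 2105 CPM, against 303 and 101 CPM in unheated sft plants. The log2 differences were 4.89 in pHS:FT plants and 3.42 in sft plants, and the difference in sft plants was 4.21 without replicate 1 of unheated sft.

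Solyc03g082420 was at 27.3 and 70.0 CPM in heated pHS:FT plants, against 0.905 and 1.20 CPM in unheated pHS:FT plants. It was at 23.9 and 24.2 CPM in heated sft plants, against 2.79 and 0.855 CPM in unheated sft plants. Its log2 difference was 4.45 in pHS:FT and 3.24 in sft plants. Solyc01g102960 showed how far replicates could lie apart: it had 86.8 and 357 CPM in heated pHS:FT plants and 6.72 and 3.96 CPM in unheated ones. In sft plants it had 142 and 105 CPM with heat, against 34.5 and 4.79 CPM without. Solyc08g062450 was at 68.2 and 226 CPM in heated pHS:FT plants, against 10.6 and 1.90 CPM in unheated pHS:FT plants. It was at 59.2 and 49.9 CPM in heated sft plants, against 11 and 2.82 CPM in unheated sft plants. In both of these genes the replicates of one condition differed several-fold. That the heated and unheated libraries of a genotype did not overlap was required by the rule.

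The next 3 genes were close to silent without heat in all libraries but replicate 1 of unheated sft. Solyc03g113930 had 13.4 and 58.6 CPM in heated pHS:FT plants, against 0.345 and 0.0413 CPM in unheated pHS:FT plants. It had 24.5 and 20.4 CPM in heated sft plants, against 12.4 and 0.427 CPM in unheated sft plants. Solyc02g093600 had 7.94 and 38.8 CPM in heated pHS:FT plants, against 0.0862 and 0.0825 CPM in unheated pHS:FT plants, and in sft plants 11.7 and 11.4 CPM with heat, against 4.18 and 0.171 CPM without. In both genes the unheated sft replicate 1 lay between the heated libraries and the other 3 unheated ones. Solyc01g099660 had 8.89 and 17.9 CPM in heated pHS:FT plants, against 0.431 and 0.124 CPM in unheated pHS:FT plants, and 9.40 and 5.35 CPM in heated sft plants, against 1.5 and 0.171 CPM in unheated sft plants.

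The remaining genes of the 12 with the largest smaller difference ran from 1.88 to 2.60 in sft plants and from 1.90 to 3.46 in pHS:FT plants. Solyc02g036350 had 36.3 and 29.1 CPM in heated pHS:FT plants, against 5.56 and 11.2 CPM in unheated pHS:FT plants, and 43.1 and 25.1 CPM in heated sft plants, against 5.32 and 3.93 CPM in unheated sft plants. Its difference was the smallest in pHS:FT relative to sft plants, at 1.90 and 2.60. Solyc01g105770 differed by 2.21 and 2.40, Solyc05g014280 by 2.69 and 1.96, Solyc09g007270 by 2.86 and 1.89 and Solyc02g079930 by 3.46 and 1.88, in pHS:FT and sft plants in that order. The heat map of all 85 genes shows the same steps from unheated to heated libraries and the paler unheated sft replicate 1.

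**Figure D2:**
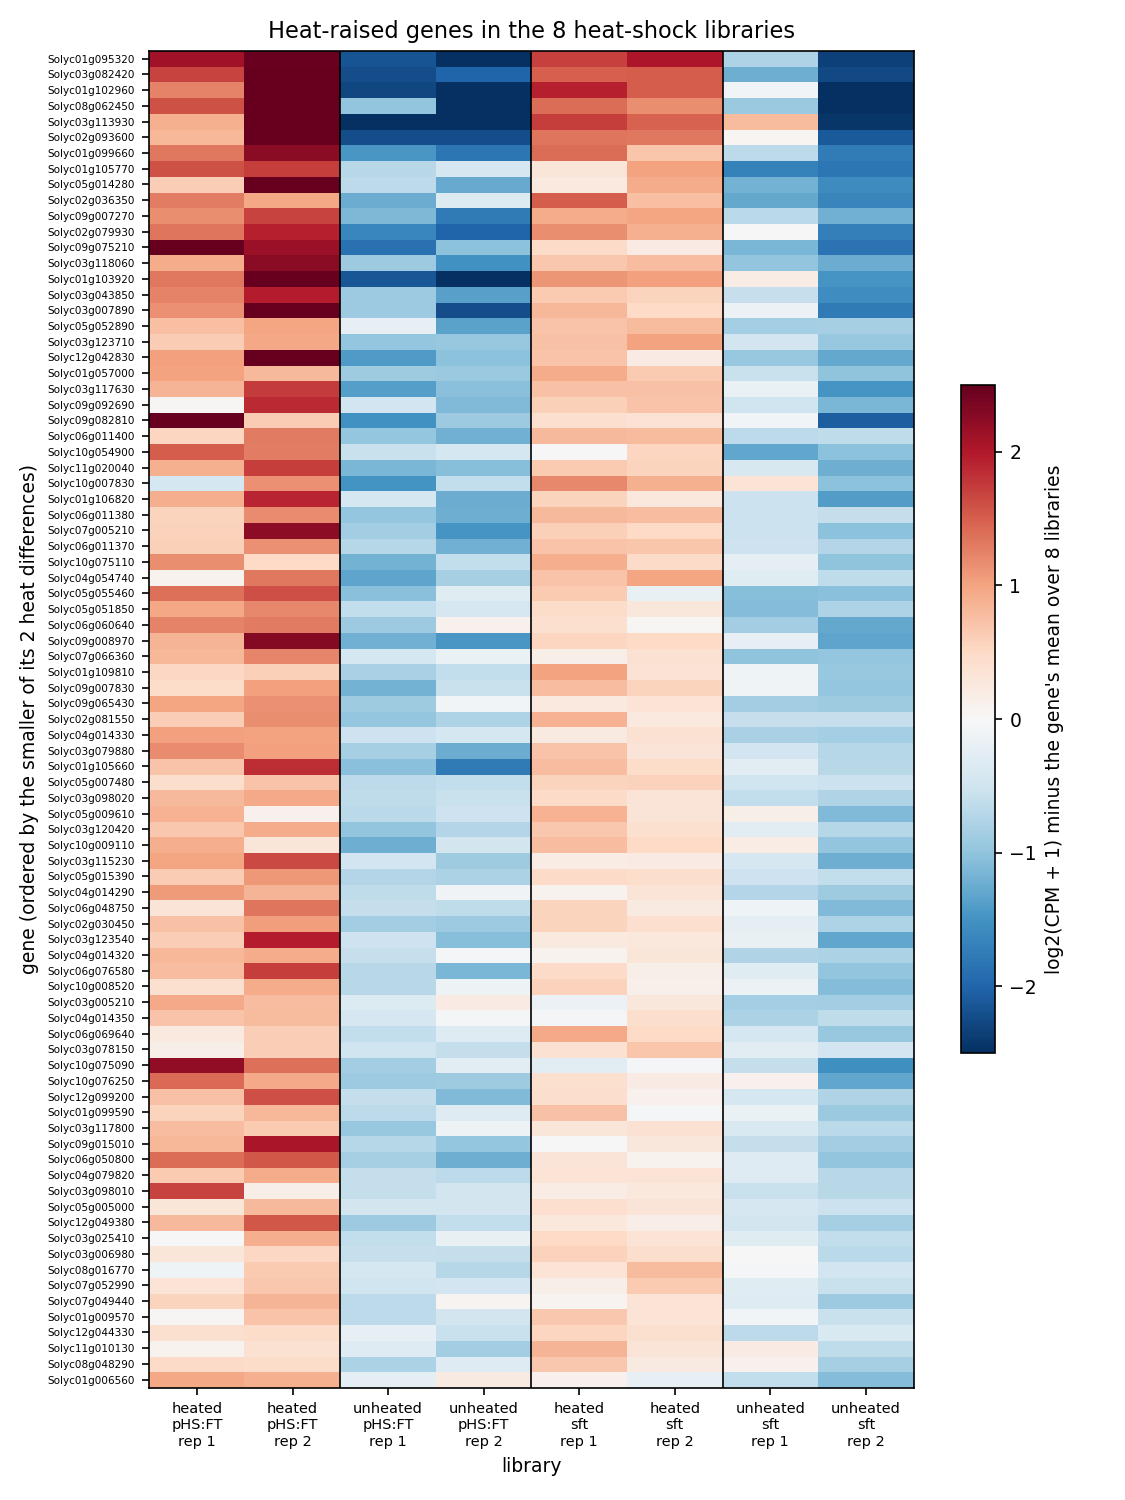
The 85 genes (rows, ordered by the smaller of their heat differences in pHS:FT and sft plants) in the 8 heat-shock libraries (columns); colour is log2(CPM + 1) minus the gene's mean over the 8 libraries, with colours capped at the ends of the scale. The choice of genes places heated above unheated libraries within each genotype but not around the mean of all 8, and unheated sft replicate 1 is higher than replicate 2 in 77 of the 85.

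Some of the 85 genes were well expressed without heat. The 5 that took the most reads in unheated libraries were Solyc12g044330, Solyc05g051850, Solyc05g015390, Solyc04g054740 and Solyc01g095320. Solyc12g044330 was at 1290 and 1336 CPM in heated pHS:FT plants, against 841 and 664 CPM in unheated pHS:FT plants, and at 1419 and 1295 CPM in heated sft plants, against 616 and 750 CPM in unheated sft plants. Its log2 differences, 0.81 and 1.0 in pHS:FT and sft plants, were near the lower edge of the list. Solyc05g051850 was at 1499 and 1782 CPM in heated pHS:FT plants, against 502 and 577 CPM in unheated pHS:FT plants, and at 1057 and 935 CPM in heated sft plants, against 364 and 449 CPM in unheated sft plants. At the other end, 20 of the 85 genes averaged under 1 CPM over the unheated libraries, and the median gene averaged 17.7 CPM with heat and 5.63 CPM without.

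Just inside the threshold lay Solyc01g006560 (0.93 in pHS:FT and 0.80 in sft plants), Solyc08g048290 (1.03 and 0.81) and Solyc11g010130 (0.83 and 0.81). Just outside lay Solyc09g009540 (0.80, under the threshold before rounding, and 0.91), Solyc11g006230 (0.79 and 1.17) and Solyc06g082560 (1.73 and 0.79). These genes were picked for lying nearest to the threshold, and whether it separates groups of genes was not tested.

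The heat difference was larger in pHS:FT than in sft plants in 80 of the 85 genes, against 54.7% of all genes with a read, and the median excess was 0.50. Both heat contrasts chose the genes, so this is a description. Without replicate 1 of unheated sft it was larger in 61 of the 85, against 48.8% of all genes with a read, with a median excess of 0.40. With all libraries the excess was largest in Solyc01g103920, which had 117 and 283 CPM in heated pHS:FT plants, against 9.83 and 6.85 CPM in unheated pHS:FT plants, and 101 and 95.4 CPM in heated sft plants, against 53.2 and 16.2 CPM in unheated sft plants. Its log2 differences were 4.31 and 1.70, an excess of 2.61. Next came Solyc09g075210 with an excess of 2.22 and Solyc03g113930 with 2.21. The order rests on replicate 1 of unheated sft: without it the excess was 1.78 in Solyc01g103920, 1.88 in Solyc09g075210 and 0.59 in Solyc03g113930. With all libraries it was smallest in Solyc02g036350 (-0.70, and -0.88 without that library), Solyc06g069640 (-0.50 and -0.76) and Solyc01g105770 (-0.19 and -0.25).

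**Figure D3:**
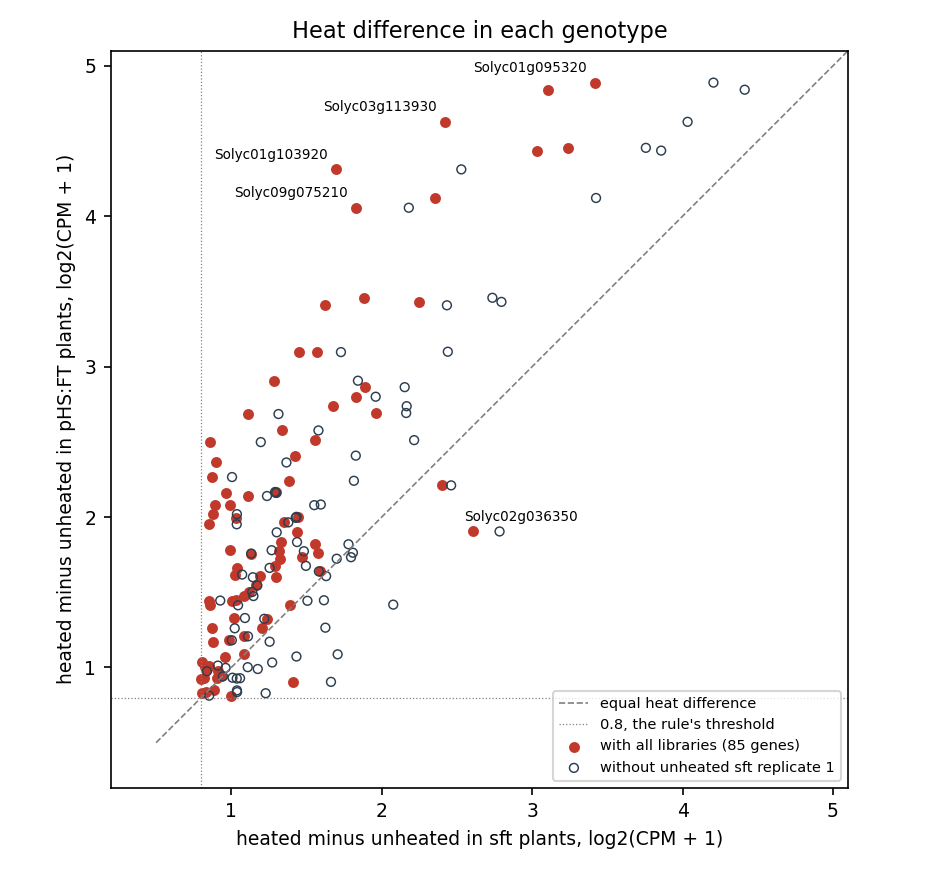
Heated minus unheated difference on the log2(CPM + 1) scale for each of the 85 genes in sft plants (horizontal) and pHS:FT plants (vertical); filled points use all libraries, open circles leave out unheated sft replicate 1, dotted lines mark the threshold of 0.8 and the dashed line equal differences. Filled points lie above the dashed line in 80 of 85 genes and open circles in 61.

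Heated pHS:FT plants were next set against heated sft plants. In this contrast FT activity, the background of the transgenic plants and any difference in the heating cannot be told apart. The heated libraries also served to choose the genes, by another contrast, so the counts are not independent of that choice. Transcript levels were higher in heated pHS:FT plants for 4 of the 85 genes and lower for 0, at an adjusted p under 0.05 in edgeR's quasi-likelihood test with Benjamini-Hochberg adjustment over 20546 genes. Among all genes tested, 2.01% were higher and 0.380% lower. At an unadjusted p under 0.05, 32 were higher and 0 lower, against 10% and 7.47% of all genes. Both heated pHS:FT libraries lay above both heated sft libraries in 46 of the 85, against 22.3% of the Solyc genes tested, and below in 0, against 27.2%. The median log2 difference was 0.66, and 0.32 without heated pHS:FT replicate 2, against -0.002 over all genes tested. The count of 4 moved when 1 heated library was left out, and so did the number of all genes that passed. Without either heated sft replicate few genes passed at all. With DESeq2 14 of the 85 were higher and 0 lower, against 745 higher and 262 lower of all 21253 genes tested.

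The largest of the 4 differences was in Solyc09g075210. It had 547 and 291 CPM in heated pHS:FT plants, against 90.2 and 74.5 CPM in heated sft plants. Without heat it had 17 and 31.1 CPM in pHS:FT plants, against 28.7 and 17.3 CPM in sft plants. The heated genotypes did not overlap and the unheated ones did. The log2 difference between heated genotypes was 2.38 (SE 0.40, adjusted p = 0.0287, edgeR), and between unheated genotypes it was 0.13 (SE 0.40, adjusted p = 0.969). Over 9 other settings the adjusted p of the heated difference ran from 0.000255 to 0.240, and it was above 0.05 without either heated sft replicate.

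Solyc10g075090 had 327 and 181 CPM in heated pHS:FT plants, against 57.4 and 67.4 CPM in heated sft plants (log2 difference 2.05, SE 0.39, adjusted p = 0.0405, edgeR). Solyc06g050800 had 24 and 26.8 CPM in heated pHS:FT plants, against 10.8 and 9.11 CPM in heated sft plants (1.36, SE 0.24, adjusted p = 0.0338). In Solyc03g098020 the levels were 128 and 142 CPM in heated pHS:FT plants and 102 and 90.9 CPM in heated sft plants, a small difference of 0.50 with close replicates (SE 0.09, adjusted p = 0.0329). Solyc01g095320, the gene with the largest heat differences, differed between heated genotypes by 0.43 (SE 0.46, adjusted p = 0.675).

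The unheated libraries had also served to choose the genes, by another contrast, so here too the counts are not independent of that choice. Between unheated genotypes, 0 of the 85 genes passed in edgeR's quasi-likelihood test, against 0% of all genes tested. At an unadjusted p under 0.05, 12 were higher and 7 lower in unheated pHS:FT plants, against 3.94% and 3.10% of all genes. DESeq2 called 2, both higher, against 82 higher and 15 lower of all 22716 genes tested. These counts include replicate 1 of unheated sft, and their split by direction depends on that library. The median log2 difference was -0.23, and it was 0.24 without replicate 1 of unheated sft, so the direction of the median rests on that library. Leaving out replicate 2 of unheated sft instead moved the median to -0.49.

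The other experiments show how the same genes stood in stems not labelled as heated and used no library that had chosen them. The comparisons of pSFT-SFT and of sft with WT share the WT libraries of the overexpression experiment, and those of 35S:SFT, 35S:TFUL2 and 35S:GinFT with WT share the WT libraries of the FUL experiment, so their values are given one comparison at a time.

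**Figure D4:**
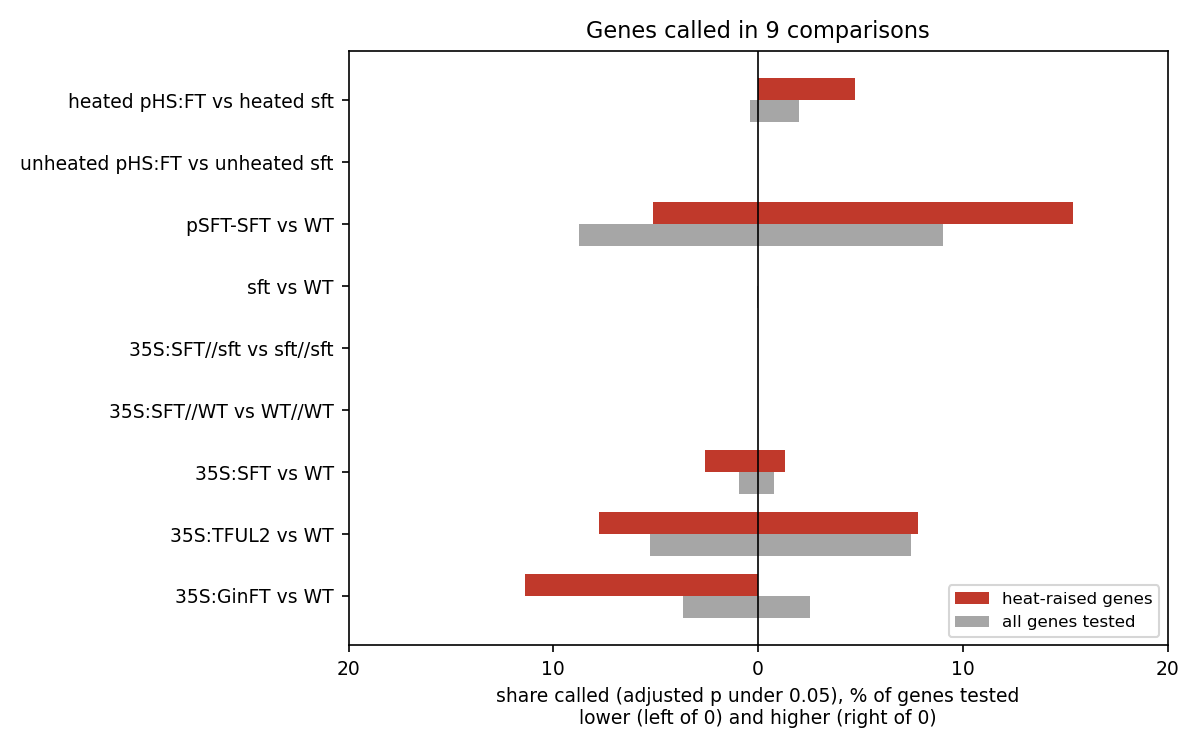
Share of genes tested (horizontal axis, percent) that passed an adjusted p under 0.05 as higher (right of 0) or lower (left of 0) in 9 comparisons, for the 85 heat-raised genes that could be tested and for all genes tested. In pSFT-SFT against WT 12 heat-raised genes were higher and 4 lower, in 35S:GinFT against WT 0 were higher and 9 lower, and in 4 comparisons none passed.

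In pSFT-SFT against WT stems, 12 genes were higher and 4 lower of the 78 that had enough reads to be tested, against 9.04% higher and 8.75% lower of all 21141 genes tested (edgeR, adjusted p under 0.05). The median log2 difference was 0.08; it was 0.28 without pSFT-SFT replicate 1, 0.20 without WT replicate 1 and -0.18 without pSFT-SFT replicate 2, so its direction rests on single libraries. The total of 16 was smaller when any 1 library of these groups was left out, and so was the number of all genes that passed.

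Solyc09g075210 was again among the largest rises, at 84.5 and 134 CPM in pSFT-SFT stems, against 17.5 and 14.7 CPM in WT stems (log2 difference 2.77, SE 0.24, adjusted p = 0.00152, edgeR). Solyc01g006560 rose to 2.20 and 2.56 CPM in pSFT-SFT stems, against 0.536 and 0.151 CPM in WT stems (2.73, SE 0.48, adjusted p = 0.0137). Solyc03g005210 held 12 and 13 reads in pSFT-SFT stems, against 2 and 1 reads in WT stems (adjusted p = 0.0113), too few for a reliable fold change. Among the genes with the largest heat differences, Solyc02g036350 was at 17 and 15.9 CPM in pSFT-SFT stems, against 6.75 and 6.53 CPM in WT stems (1.31, SE 0.13, adjusted p = 0.00258). Solyc05g014280 was at 1.95 and 5.12 CPM in pSFT-SFT stems, against 0.536 and 0.542 CPM in WT stems (2.70, SE 0.51, adjusted p = 0.0165). In each of these genes the groups did not overlap.

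The clearest fall was in Solyc12g099200, which held 1 and 0 reads in pSFT-SFT stems, against 1747 and 1066 reads in WT stems (adjusted p = 0.000146, edgeR). In every other group of the series it was well above this level, with 45.6 and 47.0 CPM in sft stems of the same experiment and 30.9 CPM or more in all the others but unheated pHS:FT plants, where it had 38.4 and 26.6 CPM. Heat differences of 2.02 in pHS:FT and 0.88 in sft plants had put it on the list. Solyc10g009110 had 35.7 and 16 CPM in pSFT-SFT stems, against 63.6 and 87.8 CPM in WT stems (-1.53, SE 0.36, adjusted p = 0.0328). Solyc07g052990 had 1.98 and 1.10 CPM in pSFT-SFT stems, against 3.78 and 5.18 CPM in WT stems (-1.51, SE 0.33, adjusted p = 0.0266).

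In sft against WT stems, 0 of 78 genes tested passed, against 0.0568% of all genes tested (edgeR). At an unadjusted p under 0.05 there were also 0, against 5.00% of all genes, and DESeq2 called 0. The median log2 difference was 0.10; it was 0.30 without sft replicate 1, 0.16 and 0.15 without WT replicates 1 and 2, and -0.08 without sft replicate 2. Solyc09g075210 was at 12.7 and 15.7 CPM in sft stems, against 17.5 and 14.7 CPM in WT stems, which overlapped.

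In grafts, none of the 85 genes passed in either comparison by edgeR's quasi-likelihood test. For 35S:SFT//sft against sft//sft the background was 0% of genes tested, 7 of the 85 had an unadjusted p under 0.05 against 4.94% of all genes, and DESeq2 called 0. For 35S:SFT//WT against WT//WT the background was 0.0139%, and 8 had an unadjusted p under 0.05 against 6.84% of all genes. DESeq2 called 1 there, against 26 higher and 64 lower of all 23289 genes tested. The median log2 difference was -0.01 in sft recipients, and leaving out 1 library moved it to -0.39 and 0.28 (35S:SFT//sft replicates 1 and 2) or to 0.50 and -0.42 (sft//sft replicates 1 and 2). In WT recipients it was 0.32, and it became -0.10 and 0.56 without 35S:SFT//WT replicates 1 and 2 and 0.61 and 0.19 without WT//WT replicates 1 and 2. The direction of both medians thus changed with the library left out. Solyc09g075210 stood at 237 and 74.5 CPM in 35S:SFT//sft grafts, against 113 and 29.9 CPM in sft//sft grafts (1.15, SE 0.76, adjusted p = 0.955). It stood at 499 and 184 CPM in 35S:SFT//WT grafts, against 134 and 218 CPM in WT//WT grafts (0.95, SE 0.75, adjusted p = 0.899). The replicates of each group overlapped those of the other.

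The spread between graft replicates followed the library numbers in the labels. The numbers form a lower and a higher run with 1 library of every graft group in each. The higher-run library lay above the lower-run one in 69 of the 85 genes in 35S:SFT//sft, 72 in sft//sft, 62 in 35S:SFT//WT, 59 in WT//WT and 70 in 35S:SFT//sp grafts, against 53.3% to 62.2% of all genes with a read. The median differences between runs were 0.55, 0.88, 0.48, 0.29 and 0.34 in these groups, against 0.01 to 0.05 over all genes. What the numbers mark is not stated. With the run as a block, a fit chosen after the data had been seen, 0 of the 85 genes passed in either comparison, against 0.0232% of all genes in sft and 0.0556% in WT recipients. At an unadjusted p under 0.05, 5 were higher and 6 lower in sft recipients, against 3.94% and 4.82% of all genes, and 21 were higher and 6 lower in WT recipients, against 5.38% and 6.01%. In this fit Solyc09g075210 differed by 1.17 in sft recipients (SE 0.55, adjusted p = 0.585, edgeR). In WT recipients it differed by 0.60 (SE 0.55, adjusted p = 0.728).

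The same genes varied more between replicates than genes at large in all 12 groups outside the heat-shock experiment. The median absolute difference between replicates of a group ran from 0.19 to 0.88 on the log2(CPM + 1) scale over the 85 genes, against 0.10 to 0.16 over all genes with a read. The comparison takes no account of expression level, and its part in this was not tested.

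In 35S:SFT against WT stems, 1 gene was higher and 2 lower of 77 tested, against 0.793% and 0.943% of all 21312 genes tested (edgeR, adjusted p under 0.05). The 3 became 5 with no filter on low counts, against 308 higher and 322 lower of all 26289 genes tested. With DESeq2 12 passed, against 643 higher and 844 lower of all 20777. A fit to these groups alone gave 0, against 9 higher and 9 lower of all 20950. Without WT replicate 1 the counts of these genes and of all genes both rose, and without either 35S:SFT replicate few genes passed at all. The gene that was higher was Solyc09g075210, at 1379 and 1951 CPM in 35S:SFT stems, against 193 and 269 CPM in WT stems (log2 difference 2.84, SE 0.26, adjusted p = 0.0137). It took 37.2% and 44.4% of the summed level of the 85 genes in those 35S:SFT libraries. Set against the same WT libraries, Solyc09g075210 was above both in 35S:TFUL2 stems, at 504 and 377 CPM. In 35S:GinFT stems, from the Ginkgo experiment, it was below both, at 113 and 182 CPM. It passed in neither of these comparisons. Solyc06g011370 had 3.92 and 4.42 CPM in 35S:SFT stems, against 8.64 and 8.29 CPM in WT stems (-1.03, SE 0.15, adjusted p = 0.0380). Solyc06g011400 had 9.19 and 10.7 CPM in 35S:SFT stems, against 16.3 and 17.1 CPM in WT stems (-0.76, SE 0.12, adjusted p = 0.0441).

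**Figure D5:**
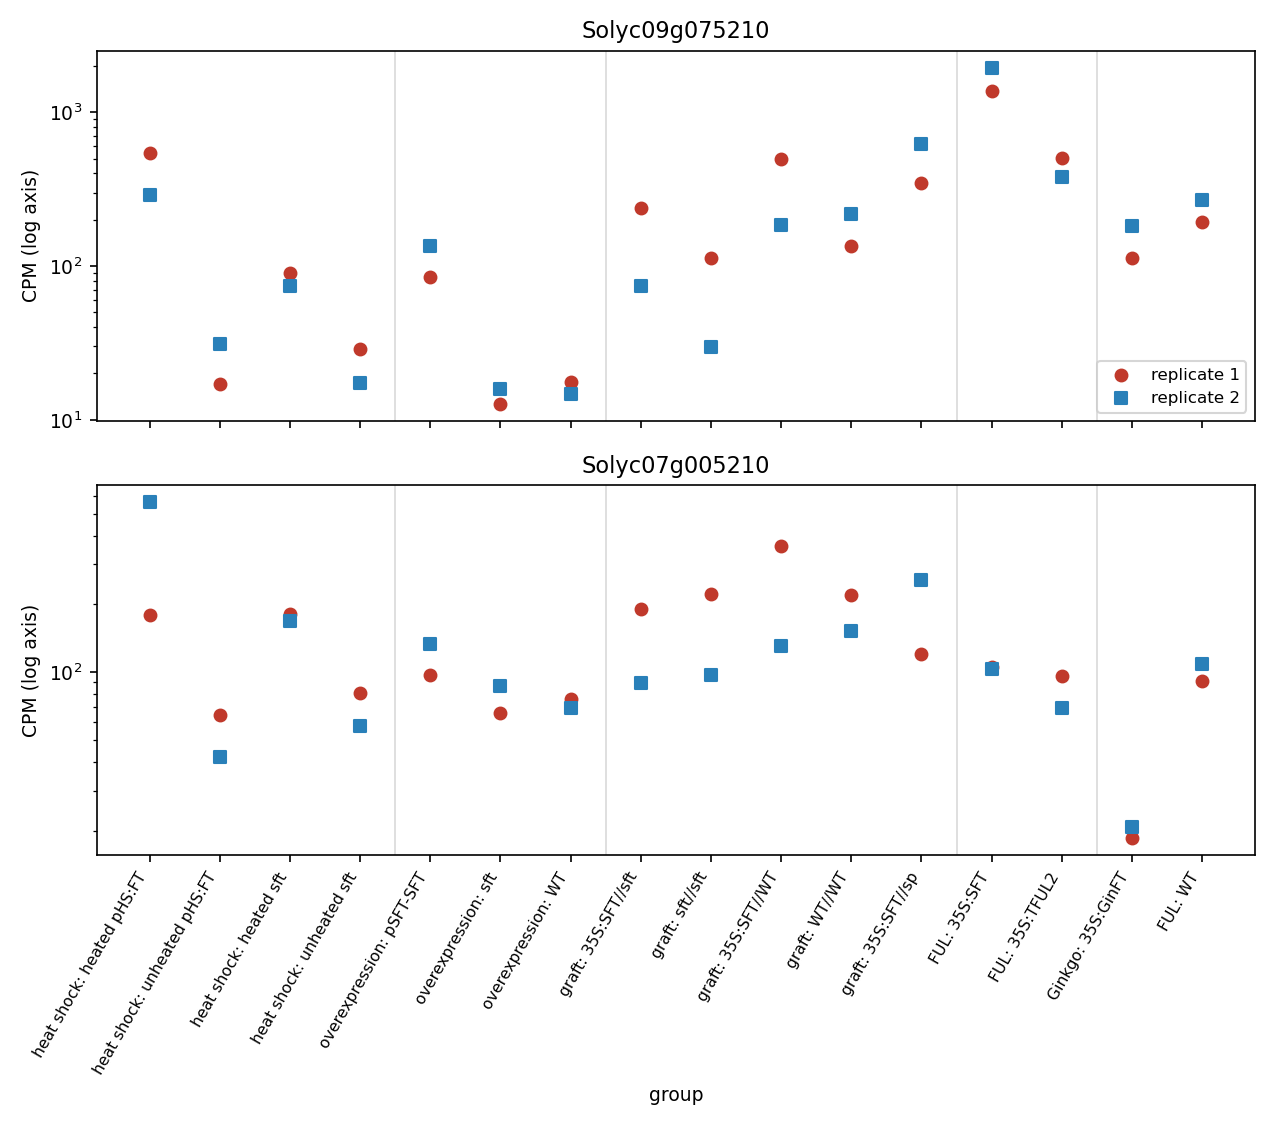
CPM (vertical axis, logarithmic) of Solyc09g075210 and Solyc07g005210 in all 32 libraries, by group; circles and squares are replicates 1 and 2. Solyc09g075210 is at 547 and 291 CPM in heated pHS:FT plants and 1379 and 1951 CPM in 35S:SFT stems, and Solyc07g005210 is at 18.5 and 20.8 CPM in 35S:GinFT stems.

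In 35S:TFUL2 against WT stems, 6 genes were higher and 6 lower of 77 tested, against 7.46% and 5.28% of all genes tested (edgeR, adjusted p under 0.05). The 12 became 6 in a fit to these groups alone, against 819 higher and 513 lower of all 21034 genes tested. Without either 35S:TFUL2 replicate the counts of these genes and of all genes both fell. Solyc09g082810 was at 337 and 350 CPM in 35S:TFUL2 stems, against 135 and 125 CPM in WT stems (1.38, SE 0.12, adjusted p = 0.00427). Solyc03g079880 was at 180 and 105 CPM in 35S:TFUL2 stems, against 49.0 and 59.9 CPM in WT stems (1.36, SE 0.25, adjusted p = 0.0253). Solyc01g006560 held 37 and 30 reads in 35S:TFUL2 stems, against 0 and 2 reads in WT stems (adjusted p = 0.0145). The largest fall was in Solyc09g008970, at 1.03 and 1.5 CPM in 35S:TFUL2 stems, against 5.89 and 5.85 CPM in WT stems (-2.23, SE 0.23, adjusted p = 0.00582). It had been higher in pSFT-SFT than in WT stems, at 25.8 and 26.1 CPM against 12.6 and 10.9 CPM (1.15, SE 0.13, adjusted p = 0.00355). Solyc03g007890 fell to 2.47 and 2.08 CPM in 35S:TFUL2 stems, against 6.56 and 8.66 CPM in WT stems (-1.76, SE 0.20, adjusted p = 0.00819). Solyc10g076250 fell to 5.18 and 4.93 CPM in 35S:TFUL2 stems, against 11.8 and 15.4 CPM in WT stems (-1.45, SE 0.20, adjusted p = 0.0121). No pair of groups overlapped in these genes.

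The Ginkgo experiment held no WT stems, so 35S:GinFT was set against the WT stems of the FUL experiment, and the construct and the experiment cannot be told apart. Of 79 genes tested, 0 were higher and 9 lower in 35S:GinFT stems, against 2.55% and 3.69% of all 21458 genes tested (edgeR, adjusted p under 0.05). The median log2 difference was -0.29, and it ran from -0.49 without WT replicate 1 to -0.11 without WT replicate 2. The summed level was 1734 and 1794 CPM in 35S:GinFT stems, against 2186 and 2536 CPM in WT stems. The 9 became 3 in a fit to these groups alone, against 65 higher and 107 lower of all 20709 genes tested. Without either 35S:GinFT replicate the counts of these genes and of all genes both fell. Without WT replicate 1 the count of these genes rose and that of all genes fell.

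Solyc07g005210 differed most, at 18.5 and 20.8 CPM in 35S:GinFT stems, against 91.0 and 108 CPM in WT stems (-2.32, SE 0.16, adjusted p = 0.00202, edgeR). In the other 30 libraries it was never below 42.1 CPM. Solyc03g115230 had 31.0 and 28.4 CPM in 35S:GinFT stems, against 63.6 and 68.6 CPM in WT stems (-1.13, SE 0.09, adjusted p = 0.00211). Solyc01g106820 had 8.19 and 8.34 CPM in 35S:GinFT stems, against 19.5 and 15.6 CPM in WT stems (-1.07, SE 0.16, adjusted p = 0.0168). Solyc06g011370 was lower by a log2 difference of -0.99 (SE 0.17, adjusted p = 0.0217) and Solyc06g011400 by one of -0.81 (SE 0.14, adjusted p = 0.0215), against the same WT libraries as in the 35S:SFT comparison. The gene with the largest heat differences, Solyc01g095320, had 25.1 and 17.9 CPM in 35S:GinFT stems, against 35.3 and 39.4 CPM in WT stems (-0.77, SE 0.16, adjusted p = 0.0401), and in 35S:TFUL2 against the same WT stems it was higher by 0.42 (SE 0.09, adjusted p = 0.0358).

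The digits of an identifier give the chromosome and the order along it. Chromosome 3 held 18 of the 85 genes, 21.2% of them, against 9.65% of all identifiers, and chromosome 1 held 12, 14.1% against 12.4%. Within 5 places of another of the 85 lay 11 genes, in 4 runs: Solyc03g098010 and Solyc03g098020, Solyc04g014290 to Solyc04g014350 with 4 of the 85, Solyc06g011370 to Solyc06g011400 with 3, and Solyc10g075090 and Solyc10g075110. Neighbouring genes may be near-identical copies that share reads, and the sequences needed to tell were not used here. Solyc06g076580 and Solyc09g015010 also lie beside identifiers that the rule drops, and the same holds for their values.

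In the chromosome 6 run, Solyc06g011380, named after its values were seen, had 14.6 and 23.3 CPM in heated pHS:FT plants, against 4.48 and 3.55 CPM in unheated pHS:FT plants, and 17.7 and 17.1 CPM in heated sft plants, against 6.36 and 6.07 CPM in unheated sft plants. The heat differences of the 3 genes lay between 1.83 and 2.00 in pHS:FT and between 1.33 and 1.44 in sft plants, and replicate 1 of unheated sft did not stand out in them.

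The chromosome 4 run is also described after its values were seen. Solyc04g014330 had 2.80 and 2.77 CPM in heated pHS:FT plants, against 0.302 and 0.371 CPM in unheated pHS:FT plants, and 1.18 and 1.43 CPM in heated sft plants, against 0.0715 and 0.0427 CPM in unheated sft plants. The unheated values rest on 7 and 9 reads in pHS:FT plants and 2 and 1 reads in sft plants, too few for a reliable fold change. In the FUL experiment Solyc04g014330 had 1.55 and 11.6 CPM in 35S:SFT stems, 5.51 and 1.39 CPM in 35S:TFUL2 stems and 0.842 and 7.71 CPM in WT stems. Solyc04g014320 had 0.892 and 10.2 CPM, 3.62 and 0.840 CPM and 1.20 and 7.10 CPM in the same stems. The same replicates were high in both genes. In 35S:SFT and in WT stems the replicates lay further apart than any pair of group means. Solyc01g105770, which lies on another chromosome, had 3.96 and 48.0 CPM in 35S:SFT stems, 29.0 and 7.08 CPM in 35S:TFUL2 stems and 3.81 and 36.0 CPM in WT stems, with the same replicates high.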

How the data were processed

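Stem RNA of 32 libraries (16 groups of 2, in 5 experiments) was read as single 50 bp reads of TruSeq RNA v2 libraries, per the labels' protocols. The values are whole-number read counts per gene, deposited by the authors in 2 tables, with 0 columns left unused. The heat-shock table has 34728 Solyc rows, 96 microRNA rows and 1 row for Arabidopsis FT. The submitters' processing notes name HTSeq 0.6.1, TopHat2 2.1.0, FastQC 0.11.5, Bowtie2 2.2.6 and Trim Galore; the sources used here give neither settings nor strand option nor genome build. The kit does not mark strand, so overlapping genes cannot be told apart, and near-identical genes may share reads.

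CPM are counts over the column total, with a pseudocount of 1 on the log2 scale. Tests used edgeR 4.0.16 in R 4.3.3 (glmQLFit and glmQLFTest, two-sided, TMM, filterByExpr with minimum count 10 and total 15) on the counts as deposited, fitted to all groups of an experiment (FUL and Ginkgo together for 35S:GinFT), with Benjamini-Hochberg adjustment over all genes tested and a threshold of 0.05. SE are on the log2 scale and were calculated back from the test, as the absolute log2 difference over the square root of its F statistic. The procedure was tried on simulated counts with the same small spread for every gene and changes only in genes with many reads. This does not cover weakly expressed genes or genes whose replicates lie far apart. DESeq2 1.42.0, other scalings and filters, a replicate block and leaving out each library were tried. Named genes are the 12 with the largest smaller heat difference at 5 CPM or more with heat, the 3 on each side of the threshold, the 3 largest rises and falls passing in each comparison, the 5 with most reads unheated, and the 3 with the largest and smallest excess in pHS:FT plants; Solyc03g098020 and genes of the chromosome 4 and 6 runs were added after their values were seen. The genes, lists and tests were chosen with earlier results of these data known. Of the Solyc identifiers, 0 matched the reference table of gene names.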

Additional observations from a re-analysis of the deposited data

How the results depend on the processing

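Counts of the 85 heat-raised genes that passed changed with these settings, and the number of all genes that passed changed as well. With a replicate block, heated pHS:FT against heated sft gave 1 in place of 4, with an edgeR adjusted p of 0.0542 for Solyc09g075210 and 0.0748 for Solyc10g075090; the labels share only a number between groups, the correlation of the replicates' deviations lay between -0.204 and 0.367, and in the other comparisons the block left the count within 1.5 times. In 35S:SFT against WT the block gave 2 higher and 0 lower in place of 1 and 2, and Solyc06g011370 and Solyc06g011400 no longer passed (adjusted p = 0.0607 and 0.0556, edgeR; 0.000943 to 0.213 and 0.00148 to 0.226 over their 9 settings). DESeq2 gave 14 between heated genotypes, 2 between unheated genotypes, 1 in 35S:SFT//WT against WT//WT and 12 in 35S:SFT against WT, where no filter on low counts gave 5. Fits to only the groups compared gave 0 in 35S:SFT, 6 in 35S:TFUL2 and 3 in 35S:GinFT against WT. A threshold of 1 in place of 0.8 gave 55 genes by the rule. Leaving out 1 library gave 0 to 8 between heated and 0 to 1 between unheated genotypes, 8 to 13 in pSFT-SFT, 0 to 12 in 35S:SFT, 2 to 16 in 35S:TFUL2 and 2 to 14 in 35S:GinFT against WT, and 0 in sft against WT and in both graft comparisons; it gave 57 to 140 genes by the rule and median heat differences of 1.58 to 1.92 in pHS:FT and 0.94 to 1.43 in sft plants. The causes were not tested. Of 21 named calls, 0 reversed and 6 passed under every setting tried: Solyc09g075210 and Solyc12g099200 in pSFT-SFT, Solyc09g082810 and Solyc09g008970 in 35S:TFUL2, and Solyc07g005210 and Solyc03g115230 in 35S:GinFT, each against WT. With 2 libraries a group, a library left out leaves a lone sample that is assumed to vary like the other groups.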
